A study of Homo sapiens with 2 samples.

Results

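MicroRNA gene promoters were examined for DNA methylation in SH-SY5Y, a neuron-like cell line that was established from a human neuroblastoma. The study compared cells treated with Mdivi-1, a compound applied to block the fission of mitochondria and first described as an inhibitor of the fission GTPase DRP1, with cells treated with its solvent DMSO, called the control below. DNA of each group was captured with the SureSelectXT Methyl-Seq kit, converted with bisulfite and sequenced as 1 library. The differences below therefore have no replicate check, and all errors cover read counting only. The dose and the length of the treatment are not given in the sources used here. Members were the autosomal promoters that the deposited annotation gives to a gene named MIRLET7 or MIR followed by a digit, leaving out host genes (names ending in HG), with at least 5 CpGs of at least 10 reads in both libraries. This rule, which uses no methylation value, found 777 promoters among 22672 autosomal promoters of that size. It also takes in MIR1-1HG-AS1, an antisense transcript whose 50 CpGs stood at 29.5% in the control and 30.2% with Mdivi-1.

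MicroRNAs are short RNAs cut from hairpin precursors by DROSHA and DICER1, and they lead Argonaute proteins to messenger RNAs that pair with the seed near the 5′ end of the mature strand. Many of their hairpins lie in introns or exons of longer host transcripts, so the stretch before a hairpin can be the inside of another gene and not the place where its transcription starts. Promoters with unmethylated CpG islands are typically open to transcription, dense methylation of an island is typical of silent genes, and the bodies of transcribed genes are commonly methylated.

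Mature sequences are shown for the microRNAs on which the results below turn. They come from RefSeq (GRCh38.p14), which held an entry for 721 of the 777 members and a mature sequence for 704 of them. In each, capitals mark the seed, bases 2 to 8 counted from the 5′ end. The first set holds mature microRNAs that are encoded at more than 1 locus and whose promoters differed widely in methylation between the loci.
hsa-miR-7-5p: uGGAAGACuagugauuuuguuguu
hsa-miR-199a-3p: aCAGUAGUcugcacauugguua
hsa-miR-199a-5p: cCCAGUGUucagacuaccuguuc
hsa-miR-196a-5p: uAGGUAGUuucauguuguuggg
hsa-miR-9-5p: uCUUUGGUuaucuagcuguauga
hsa-miR-125b-5p: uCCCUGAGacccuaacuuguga

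The next set is shown for the opposite reason: each is encoded at more than 1 locus, and the promoters of its loci stood at nearly the same level.
hsa-miR-26a-5p: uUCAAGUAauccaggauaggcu
hsa-miR-218-5p: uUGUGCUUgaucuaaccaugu
hsa-miR-219a-5p: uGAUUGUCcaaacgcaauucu
hsa-miR-138-5p: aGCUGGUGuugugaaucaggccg
hsa-miR-24-3p: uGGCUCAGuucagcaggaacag

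Another 4 groups share a seed but not the whole strand. They are the let-7 group, the miR-17 group, the group of miR-200b, miR-200c and miR-429, and the miR-29 group.
hsa-let-7a-5p: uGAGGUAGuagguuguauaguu
hsa-let-7b-5p: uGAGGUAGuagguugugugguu
hsa-let-7c-5p: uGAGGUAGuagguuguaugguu
hsa-let-7i-5p: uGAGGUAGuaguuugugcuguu
hsa-miR-17-5p: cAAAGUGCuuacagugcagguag
hsa-miR-20a-5p: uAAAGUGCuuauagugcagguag
hsa-miR-93-5p: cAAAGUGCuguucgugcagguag
hsa-miR-106b-5p: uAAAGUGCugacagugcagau
hsa-miR-200b-3p: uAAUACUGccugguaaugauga
hsa-miR-200c-3p: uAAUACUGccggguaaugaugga
hsa-miR-429: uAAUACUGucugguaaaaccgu
hsa-miR-29a-3p: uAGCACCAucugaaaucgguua
hsa-miR-29b-3p: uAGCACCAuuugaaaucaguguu
hsa-miR-29c-3p: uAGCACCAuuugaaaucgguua

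The last set belongs to promoters with some of the largest differences between the libraries, which shared no seed with one another.
hsa-miR-6881-5p: uGGGGUAAggauaggaggguca
hsa-miR-5189-5p: uCUGGGCAcaggcggauggacagg
hsa-miR-655-3p: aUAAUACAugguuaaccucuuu
hsa-miR-376c-3p: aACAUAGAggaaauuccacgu
hsa-miR-210-3p: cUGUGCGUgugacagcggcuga
hsa-miR-126-3p: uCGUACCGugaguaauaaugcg
hsa-miR-3166: cGCAGACAaugccuacuggccua

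The 777 promoters held 21781 distinct CpG positions with recovered whole reads. In 16 members 156 pairs of positions lie 1 bp apart, as the strands of 1 CpG do; each position is counted as a CpG below unless merged values are given. A promoter held a median of 20 CpGs, from 5 to 165, over a median of 1271 bp and at most 2074 bp. Mean coverage per promoter had a median of 36.5 reads (control), from 11.4 to 213, and of 45.1 reads (Mdivi-1), from 12.4 to 246. Neighbouring hairpins share sequence upstream, and 1238 CpGs counted for 2 or more members. As a result 17 members had the same CpGs as another member, and there were 767 distinct sets; MIR941-1 to MIR941-5 are 1 set, as are MIR18A with MIR19A, and MIR19B1 with MIR92A1. These are not separate measurements.

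MicroRNA gene promoters were far more often methylated than other promoters. Their median level was 57.1% in the control and 57.3% with Mdivi-1, against a control median of 17.8% over 21881 other autosomal promoters. In the control, 212 members (27.3%) stood under 20%, 278 (35.8%) between 20% and 80%, and 287 (36.9%) at 80% or more. The shares among other promoters were 53%, 36.7% and 10.3%. In both libraries 144 members stayed under 10% and 182 stayed at 90% or more. MIR484, which precedes the microRNA of that name in the shared NDE1 and MARF1 promoter region, was among the lowest at 0.934% in the control and 1.27% with Mdivi-1. MIRLET7I, a let-7 gene in a CpG island shared with LINC01465, stood at 0.969% and 0.646%. Among the highest were MIR143, within the noncoding transcript CARMN, at 97.1% and 93.3%, and MIR218-1 at 95.8% and 93.5%.

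**Figure D1:**
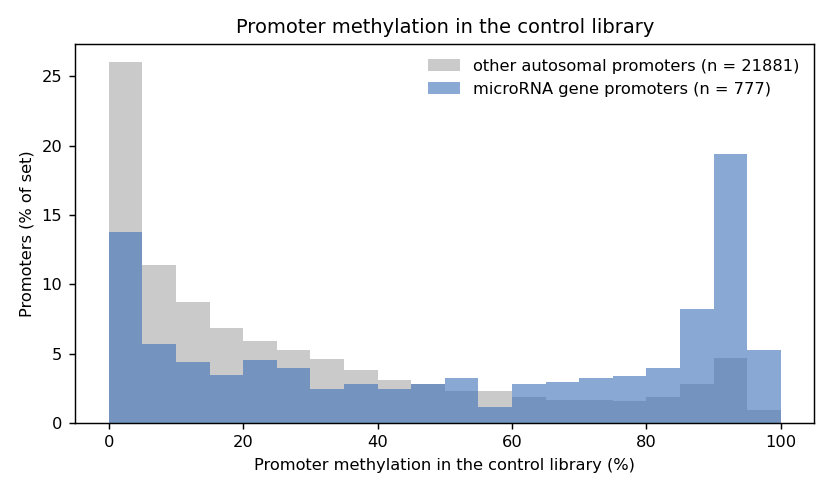
Distribution of promoter methylation in the control library, in percent on the x axis, for 777 microRNA gene promoters (blue) and 21881 other autosomal promoters (grey), each as percent of its set on the y axis. The other promoters pile up at low levels, while the microRNA gene promoters have a second peak near full methylation.

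Position in the genome went with these levels. The 208 members whose CpGs lay mostly in CpG islands had a control median of 11.5%, against 55.0% for 156 on island shores, 87.4% for 95 on shelves and 76.6% for 318 outside them. Other promoters followed a flatter order, with medians of 8.82% in islands, 24.9% on shores, 30.1% on shelves and 32.1% outside. In the authors' gene annotation, 304 members lay mostly in introns, at a median of 71.9%, and 111 mostly in exons, at 89.2%. The 177 members annotated as upstream of a gene had a median of 23.3%, and the 16 in 5′ UTRs of 4.19%. Other promoters mostly in introns had a median of 18.7%, and those mostly in exons of 27.6%.

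Sharing CpGs with the promoter of a gene that is no microRNA separated the members further. The 532 members that shared none had a control median of 80.4%, the 149 that shared a part 12.3%, and the 96 that shared all 13.7%. Members that shared none were also less often in islands, 72 of 532 against 54 of the 96 that shared all. Within islands the medians of these groups were 45.6% and 5.48%. Outside islands, shores and shelves they were 80.4% for 276 members and 53.7% for 15.

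Some promoters held both states. Over 236 members with at least 3 CpGs inside and 3 outside an island, the median level was 1.71% inside and 31.4% outside in the control, and 1.89% and 31.9% with Mdivi-1. The signed gap within a promoter (outside minus inside) had a median of 3.77 points in the control. This is not its typical size, because gaps of either sign offset each other. The island CpGs were the lower ones in 162 of the 236 members and the higher ones in 74. In 24 members the outside exceeded the inside by at least 50 points, and in 3 the reverse held. MIR193A stood at 92.1% inside (19 CpGs) and 3.33% outside (3 CpGs). MIR196B stood at 86.1% (3 CpGs) and 16.9% (23 CpGs), and MIR6720 at 65.4% (41 CpGs) and 1.44% (16 CpGs). The MIR193B promoter had 0% at 4 island CpGs and 91.1% at 19 others. That of MIR4721 had 1.16% and 88.2%, and that of MIR4707 had 1.20% and 84.1%. In MIR1258, 32 island CpGs stood at 8.84% and 25 others at 75%. A promoter mean near the middle of the scale can thus be a mixture of low and high CpGs, as in MIR124-3, where single CpGs ran from 0% to 100% around a mean of 69.5%.

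Loci that encode 1 mature microRNA could differ from nearly unmethylated to nearly fully methylated. The 3 miR-7 genes were the most unequal of 24 numbered families with at least 2 measured loci. MicroRNA-7 is known for its abundance in neuroendocrine cells. The MIR7-1 promoter, inside the HNRNPK gene, stood at 91.3% in the control and 93.4% with Mdivi-1 over 8 CpGs. MIR7-3, which shares 6 of its 38 CpGs with the promoter of its own host gene MIR7-3HG, stood at 3.83% and 4.59%. MIR7-2 lay between them at 62.2% and 60.4% over 13 CpGs. The CpGs of MIR7-1 (77.6% to 99.0% in the control) and of MIR7-3 (0% to 57.6%) did not overlap.

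The miR-199 genes lie antisense in the genes of the dynamins, the GTPase family to which DRP1 is related. The MIR199A1 promoter, within DNM2, stood at 80.7% in the control and 82.7% with Mdivi-1. MIR199A2, within DNM3 and sharing CpGs with the promoter of its host DNM3OS, stood at 8.60% and 8.94%. MIR199B, whose 3′ strand is identical to that of MIR199A1 and MIR199A2, stood at 12.6% and 9.93% over 8 CpGs. The difference between the libraries was 2.03 ± 1.88 points at MIR199A1, 0.340 ± 0.822 at MIR199A2 and -2.66 ± 3.07 at MIR199B, where ± gives the counting error for independent CpGs here and below.

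Other families split in the same manner. MIR153-1, in PTPRN, stood at 18.5% in the control and MIR153-2, in the related gene PTPRN2, at 93.7%. Of the miR-196 genes, which lie in the HOX clusters that pattern the body axis, MIR196A1 stood at 37.4%, MIR196A2 at 91.4% and MIR196B at 24.9%. The MIR124 promoters, which precede the main neuronal microRNA, stood at 20.9%, 40.9% and 69.5% for MIR124-1, MIR124-2 and MIR124-3. MIR9-1 and MIR9-3, which serve neural progenitors, stood at 14.3% and 15.4% with MIR9-2 at 44.8%, and MIR125B1 and MIR125B2 at 48.2% and 18.9%. Across these loci the 2 libraries differed by at most 2.66 points, and in no family did the order of loci change.

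Evenly methylated families were more common. Of the 24 numbered families 4 had a control range of at least 50 points and 12 a range under 10 points; among 19 sets of loci with an identical mature strand the counts were 4 and 9. MIR26A1 and MIR26A2 stood at 92.5% and 93.6%, and MIR219A1 and MIR219A2, of microRNAs typical of oligodendrocytes, at 88.0% and 89.5%. MIR218-1 and MIR218-2, in the axon guidance genes SLIT2 and SLIT3, stood at 95.8% and 92.3%, MIR138-1 and MIR138-2 at 93.0% and 86.1%, and MIR24-1 and MIR24-2 at 92.3% and 90.5%. Some loci of a family lie side by side and share CpGs, so that a narrow range is not always a separate observation: MIR941 is 1 set of CpGs with 5 names.

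**Figure D2:**
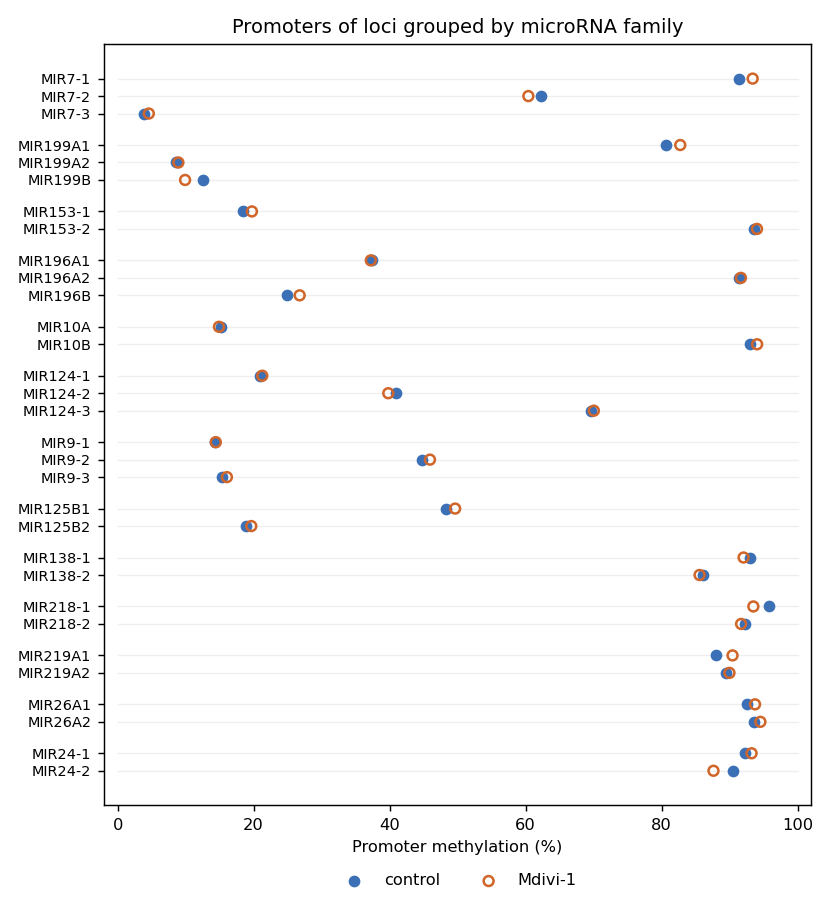
Promoter methylation in percent (x axis) at the loci of 13 microRNA families (y axis), with filled points for the control and open points for the Mdivi-1 library. Loci of the upper families lie far apart while the 2 points of each locus nearly coincide; the lowest 5 families stay between 85.6% and 95.8% in both libraries.

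Genes with the same seed ranged from alike to far apart. Of 945 seeds in the matched mature strands, 115 belonged to at least 2 members, and the control levels spanned at least 50 points in 36 of these and under 10 points in 35. Not all of these seeds are separate measurements. MIR941 is 1 set of CpGs, and MIR24-1 with MIR24-2 counted under both GCCUACU and GGCUCAG. The let-7 seed GAGGUAG spanned 0.969% at MIRLET7I to 91.0% at MIRLET7C. The seed AAAGUGC, whose microRNAs restrain the cell cycle inhibitor p21, spanned 5.10% at MIR17 to 90.5% at MIR106B. For AAUACUG the range was narrower, from 33.6% at MIR429 to 64.5% at MIR200C. The 4 miR-29 genes, whose products target DNA methyltransferases, were all high, from 83.1% at MIR29B2 to 93.4% at MIR29A.

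The 2 libraries were nearly equal at most members. Across the 777 promoters the levels correlated with Pearson's r of 0.998, a description over promoters of the same 2 libraries, some of which share CpGs. The mean difference, Mdivi-1 minus control, was 0.668 points and the median 0.370 points. It was above 0 in 494 members and below 0 in 283, against 12716 and 9157 of the other promoters, whose median was 0.192. Members are more methylated than other promoters, and the difference went with the level. Where the mean of both libraries was under 20%, the median difference was 0.124 points in members and 0.0794 in others. Between 20% and 80% it was 0.524 and 0.440, and at 80% or more it was 0.803 and 0.858.

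Counting errors were of a similar size. The root mean square difference was 2.50 points, while the root mean square counting error was 1.95 points if all CpGs were independent. It was 8.09 points if the same reads covered all CpGs of a promoter, each read wholly methylated or wholly unmethylated. Promoters that mix low and high CpGs cannot reach this second error. The true counting error was not measured, and neither figure includes variation between cultures or libraries. For 558 members (71.8%) the libraries differed by less than 2 points. At least 5 points separated them in 39 members (5.02%), 32 higher with Mdivi-1 and 7 lower, against 3.84% of other promoters, whose directions were not counted. These shares are not matched for CpG number, since other promoters held a median of 27 CpGs and members of 20. Beyond 1.96 independent-CpG errors lay 88 members (11.3%), 67 higher and 21 lower. Other promoters also leaned upward there, with 1739 higher and 799 lower (11.6%). None of either lay beyond 1.96 shared-read errors, which are too wide to separate differences of this size.

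A rule of size was set for calling a promoter different: at least 10 points, with at least 80% of its CpGs in that direction. It was met by 2 members (0.257%), which is close to the background of 0.243% over all 22658 promoters with recovered counts. In each direction it was met by 1 member, where the background was 0.128% higher and 0.115% lower. Both members had only 5 CpGs, the smallest number allowed.

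The member called higher was MIR6881 (chr15:74704323-74704491, hg19), in an intron of SEMA7A, which encodes a membrane-anchored semaphorin of axon growth. Its mean was 16.2% in the control and 37.1% with Mdivi-1, a difference of 20.9 points with errors of 6.48 for independent CpGs and 16.4 for shared reads. Methylated reads at its 5 CpGs were 1 of 11, 7 of 12, 2 of 15, 0 of 17 and 0 of 17 in the control. In the Mdivi-1 library they were 2 of 11, 8 of 10, 11 of 19, 1 of 17 and 4 of 17. All 5 CpGs were higher, and the third one carried the widest gap. None of them had 20 reads in both libraries.

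The member called lower was MIR1208, on chromosome 8 near PVT1, in a region often amplified in cancer. It stood at 53.9% in the control and 41.1% with Mdivi-1, a difference of -12.8 points with errors of 6.53 and 13.7. Methylated reads were 23 of 37, 9 of 15, 10 of 17, 12 of 21 and 11 of 35 in the control. With Mdivi-1 they were 18 of 36, 6 of 18, 8 of 18, 10 of 19 and 13 of 52. All 5 CpGs were lower, by 4.51 to 26.7 points, and the CpG levels of the libraries overlapped.

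Differences were smaller among promoters with more CpGs. Among members of at least 10 CpGs the widest gap was at MIR5189 (chr16:88534618-88534689), in an intron of ZFPM1, at 81.7% in the control and 94.9% with Mdivi-1. The difference of 13.3 ± 3.18 points missed the rule because 7 of 12 CpGs were higher. It came mainly from the first 2 CpGs, 2 bp apart, at 6 of 16 and 3 of 16 methylated reads in the control and 10 of 10 and 7 of 10 with Mdivi-1. Most of the other CpGs were above 90% in both libraries.

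Next came MIR6753, in the proton pump gene TCIRG1, at 26.6% in the control and 36.3% with Mdivi-1 over 43 CpGs, of which 30 were higher. With a minimum of 20 reads its difference of 9.71 ± 2.04 points became 5.73. MIR6891, within HLA-B, stood at 18.8% and 26.2% over 11 positions. Merging the strands left it 7 CpGs and reduced its difference from 7.40 to 2.32 ± 2.46 points. MIR4632, in the TNF receptor gene TNFRSF1B, stood at 51.4% and 58.4%. MIR655 was the most even of these. It stood at 59.1% and 66.5% over 24 CpGs, of which 22 were higher, a difference of 7.37 ± 1.94 points that was 7.38 with 20 reads and 8.69 with pooled reads.

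Promoters lower with Mdivi-1 included that of MIR210 (chr11:569074-569494), the microRNA best known for its induction by hypoxia and its action on mitochondrial iron-sulfur cluster assembly. This island promoter, shared with its host gene MIR210HG, stood at 33.6% in the control and 26.6% with Mdivi-1. Of its 28 CpGs 19 were lower, and the difference of -7.03 ± 2.07 points was -5.26 with pooled reads and -6.09 with 20 reads. MIR126 (chr9:139564943-139565088), an endothelial microRNA gene in an intron of EGFL7, stood at 35.1% and 28.9% over 12 CpGs, of which 9 were lower. Its difference was -6.17 ± 3.03 points.

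Among members of at least 10 CpGs, the other 3 of the 5 lowest differences depended more on how CpGs were weighted or kept. MIR1204, in PVT1, stood at 26.4% and 21.2%, a difference of -5.15 points that shrank to -1.61 with pooled reads and -0.154 with 20 reads. Its 18 CpGs shared with another promoter stood at 68.4% in the control and 54.9% with Mdivi-1, and its other 32 at 2.79% and 2.32%. The minimum of 20 reads removed many of the shared CpGs that were lower. MIR6071, in ATOH8, stood at 68.6% and 63.6%, and its difference of -4.97 became -2.79 with pooled reads. MIR10396A stood at 52.2% and 47.3% over 115 positions, which are 97 CpGs once their strands are merged. It had the highest coverage of all members, and its difference of -4.84 became -4.38 with merged strands and -1.79 with pooled reads.

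**Figure D3:**
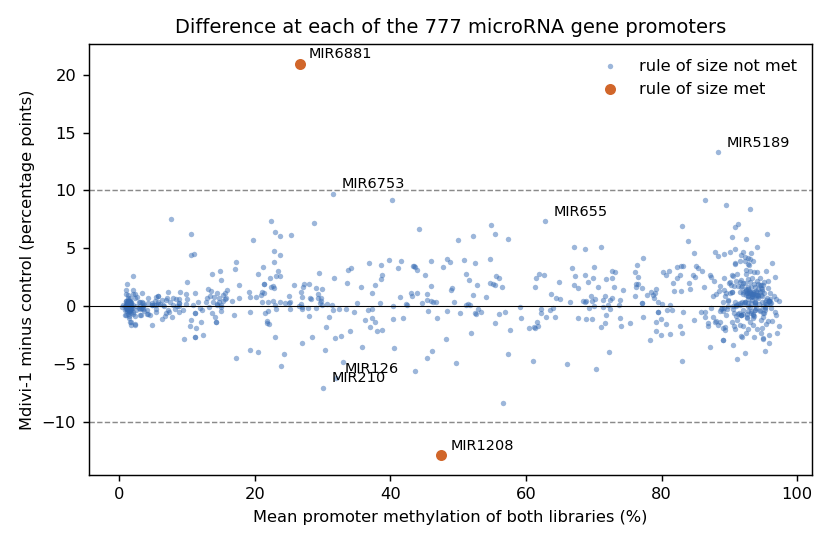
Difference in promoter methylation, Mdivi-1 minus control in percentage points (y axis), against the mean of both libraries in percent (x axis) for the 777 members; dashed lines mark 10 points and orange points the members that met the rule of size. Most points lie within 2 points of 0, and only MIR6881, MIR5189 and MIR1208 pass a dashed line.

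No single CpG of a member promoter was called. Fisher's exact test (two-sided, Benjamini-Hochberg over all 2523728 CpGs, adjusted p under 0.05 and at least 20 points) called 0 of 21781 member CpGs, against a background of 0.000634%, or 16 CpGs in all, with 0.000396% higher and 0.000238% lower. This test compares the reads of these 2 libraries, not the treatments. At an unadjusted p under 0.05 there were 369 member CpGs (1.69%), 229 higher and 140 lower, against 2.02% of all CpGs and 1.44% of those in promoters. The smallest p was at a CpG of MIR3166 (chr11 87908806), with 30 of 39 methylated reads in the control and 19 of 57 with Mdivi-1 (Fisher's exact p = 3.01e-05, adjusted p = 1). Next were a CpG of MIR9-1 (chr1 156390536), with 18 of 99 and 2 of 95 (exact p = 0.000213), and a CpG of MIR5088 (chr19 50183930), with 2 of 10 and 13 of 14 (exact p = 0.000489).

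The MIR3166 promoter (chr11:87908135-87909233) differed from the rest in its course along the sequence, and was singled out after its values were seen. Its 52 CpGs, 31 of them in an island, averaged 47.1% in the control and 52.8% with Mdivi-1, with 26 higher and 26 lower. The difference of 5.69 points was 0.282 with pooled reads and -1.86 with 20 reads. The 32 CpGs that belong to no other promoter stood at 38.3% in the control and 56.2% with Mdivi-1, a difference of 17.9 ± 2.56 points (12.7 for shared reads), with 25 higher. The 20 CpGs shared with the promoter of RAB38, a small GTPase of melanosome transport, stood at 61.2% and 47.5%, a difference of -13.8 ± 2.62 points (10.3 for shared reads), with 19 lower. With 20 reads the stretches stood at 43.2% against 53.1% (21 CpGs) and at 64.6% against 47.3% (16 CpGs, all lower). Among 289 members that could be divided at an island or shared-promoter boundary, 7 had a part that differed by at least 10 points. MIR3166 was the only one with opposite differences of at least 10 points.

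Counts at neighbouring CpGs of MIR3166 were nearly the same. At 3 CpGs between positions 87908305 and 87908311 the control had 2 of 12 methylated reads each and the Mdivi-1 library 7 of 13, 7 of 12 and 7 of 12. Coverage in the first stretch averaged 28.6 reads in the control and 33.8 with Mdivi-1, and fell to between 10 and 23 reads where the gap was widest. In the second stretch it averaged 40.3 and 55.7 reads.

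**Figure D4:**
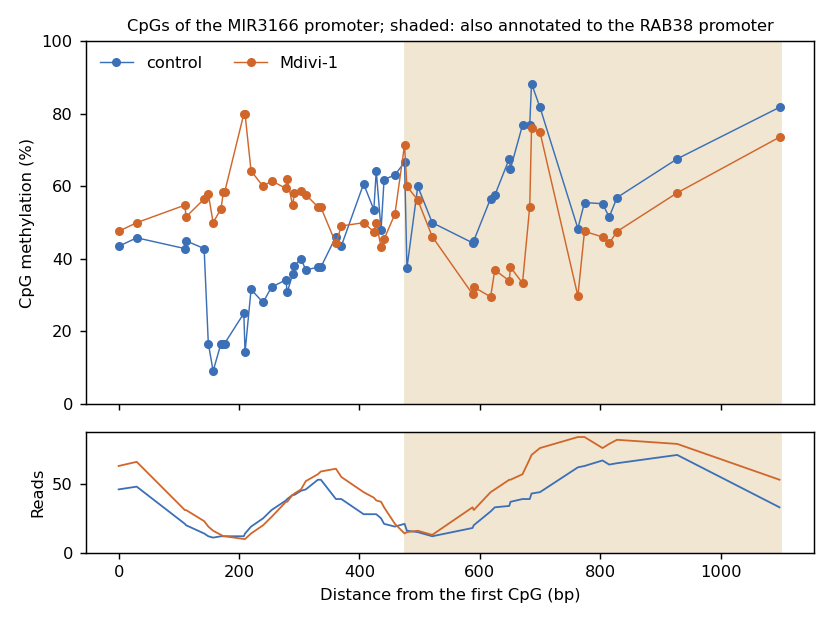
Methylation in percent (upper panel) and reads (lower panel) at the 52 CpGs of the MIR3166 promoter by distance from its first CpG in bp, with the control in blue, the Mdivi-1 library in orange, and shading over the 20 CpGs shared with RAB38. Orange lies above blue at 25 of 32 CpGs left of the shading and below it at 19 of 20 within it, and coverage is lowest near the widest gap.

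Groups of microRNAs with a common role were then described from lists, with all members' median difference of 0.370 points for comparison. No member of any list met the rule of size. A set of 87 promoters was chosen mostly by the naming rule given below, with some added by hand and MIR5088 left out. Pooling the reads turned the direction of 19 of them, and a minimum of 20 reads that of 18 of the 78 still measured. The let-7 family, which restrains growth and is blocked by LIN28 proteins, had 5 of 13 listed genes measured (miR-202 included), at a control median of 77.0%. Of these 4 were higher and 1 lower, with a median difference of 1.14 points, which was -0.157 with pooled reads and -0.272 with 20 reads. MIRLET7A3 stood at 77.0% and 77.3%, and MIRLET7B, whose CpGs overlap with it, at 78.4% and 79.6%, both inside MIRLET7BHG. MIRLET7C, within MIR99AHG, stood at 91.0% and 95.1%. MIR202 was at 21.6% and 23.2%.

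Annotated promoters of the oncogenic miR-17-92 cluster were low in methylation, and those of its relative miR-106b-25 were high. The former lie near the start of a host transcript and the latter inside a gene, so unlike positions are set side by side. All 9 listed genes were measured, with a median difference of 0.432 points, 7 higher and 2 lower; with pooled reads it was -0.479 and with 20 reads -0.376. Near the start of MIR17HG, which MYC and MYCN activate, MIR17 stood at 5.10% in the control and 5.53% with Mdivi-1. MIR18A and MIR19A, with the same 16 CpGs, stood at 5.29% and 6.16%, MIR20A at 7.26% and 7.66%, and MIR19B1 and MIR92A1, with the same 13 CpGs, at 20.5% and 22.4%. Inside the replication gene MCM7, MIR106B stood at 90.5% in both libraries, MIR93 at 88.8% and 88.6%, and MIR25 at 80.5% and 79.4%.

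MicroRNA genes linked to the tumour suppressor p53 stood in the middle or high, with 8 of 10 measured at a control median of 62.6%, a median difference of 0.671 points, and 5 higher and 3 lower. MIR34A, a direct p53 target often lost in neuroblastoma, stood at 53% and 50.7%. MIR34B and MIR34C, transcribed together, stood at 68.1% and 70.2%, and at 51.9% and 53.7%. The 9 CpGs of MIR34B are also among the 34 of MIR34C, so these are not separate measurements. The other 25 CpGs of MIR34C stood at 46.0% and 47.8%. MIR143 and MIR145 were high in both libraries, MIR143 at the values given above and MIR145 at 93.5% and 93.9%. MIR192 and MIR194-2, which overlap, stood at 51.7% and 52.7%, and at 57.1% and 56.6%.

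The miR-200 family, which keeps epithelial cells epithelial, had the largest median difference of these lists, 1.75 points over 6 members, with 4 higher and 2 lower. The sign rested on the weighting, since pooled reads gave -0.449 and a minimum of 20 reads gave -0.136. MIR200C and MIR141, next to each other and sharing CpGs with the promoter of MIR200CHG, stood at 64.5% and 69.6% (difference 5.11 ± 2.52) and at 74.6% and 78.2% (3.60 ± 1.69). The 13 CpGs of MIR200C are also among the 21 of MIR141, so these are not separate measurements. The other 8 CpGs of MIR141 stood at 91.1% and 92.2%, a difference of 1.16 points. At the other site of the family, MIR200B stood at 39.5% and 42.8%, MIR200A at 42.2% and 42.4%, and MIR429 at 33.6% and 33.4%. MIR205 was lowest at 11.2% and 10.1%.

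Neuronal microRNA genes covered the whole scale. Of 34 listed, 31 were measured, at control levels from 3.83% to 95.8% with a median of 48.9%. The median difference was 0.370 points, equal to that of all members, with 20 higher and 11 lower. MIR137, a regulator of neuronal maturation, stood at 89.1% and 92.7%. MIR132 and MIR212, activity-dependent genes that lie next to each other, stood at 26.8% and 26.9%, and at 36.9% and 35.7%. MIR129-1 had the widest difference of the list upward, from 48.9% to 52.9%, and MIR326 downward, from 37.5% to 34.0%.

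The imprinted DLK1-MEG3 region at 14q32 holds one of the largest microRNA clusters in the genome, normally expressed from the maternal copy. Of 56 listed genes 52 were measured, but MIR342 and MIR345 lie outside the cluster by position and had low levels, 8.75% and 3.89% in the control. The other 50 had a control median of 69.9%, from 37.4% to 94.3%, and a median difference of 0.688 points. They formed 2 blocks, separated by more than 20000 bp. The first, from MIR770 to MIR136 (chr14:101318358-101351048), held 8 members around the imprinted gene RTL1 at 83.5% to 94.3%, median 92.5%. MIR127 stood there at 94.3% and 95.2%, and MIR136 at 94.0% and 95.5%.

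The second block, from MIR379 to MIR656 (chr14:101487498-101532993), held 42 members at a median of 68.5%. It ran from 37.4% at MIR544A to 89.0% at MIR543. MIR410 stood at 74.4% and 73.4%, and MIR656 at 80.9% and 80.6%. The median difference was 0.688 points with 28 members higher and 14 lower, against -0.392 points with 4 and 4 in the first block. MIR655 and MIR376C were the most different upward, MIR376C standing at 79.5% and 86.4% over 12 CpGs. MIR411 and MIR379, whose CpGs overlap, were the most different downward, from 63.4% to 58.7% and from 47.6% to 43.2%. Overlapping windows make neighbours in both blocks dependent on one another.

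The primate-specific C19MC cluster at 19q13, normally active in placenta, was thinly covered, with 6 of 46 listed genes measured over 5 to 7 CpGs each. Levels ran from 7.19% at MIR1323 to 71.4% at MIR516B1, and the median difference was -0.304 points, with 2 higher and 4 lower, and 1.95 with 20 reads. MIR520E stood at 21.6% and 26%, a difference of 4.43 ± 4.2 points. MIR518A2 stood at 15.3% and 19.2%, a difference of 3.87 ± 3.04 points.

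MicroRNA genes known as targets of methylation in cancers had 23 of 24 measured, with a control median of 44.8% and a median difference of 0.353 points, 16 higher and 7 lower. They were not uniformly methylated in this line. MIR375, MIR148A and MIR152 stood low in the control at 3.67%, 14.3% and 3.08%, and at 2.90%, 14.6% and 1.57% with Mdivi-1. MIR129-2 stood at 29.6% and 30.04%, and MIR1-1 at 27.1% and 29.1%. MIR203A, MIR193A, MIR149 and MIR181C were high in the control at 90.6%, 80.02%, 73.7% and 87.7%.

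MicroRNAs reported to act on DNA methyltransferases, namely the miR-29 family, miR-148a and miR-152, had 6 of 7 genes measured. Their median difference was 0.413 points, with 4 higher and 2 lower. At MIR152, within COPZ2, the difference was -1.51 ± 0.61 points from a level already low. The miR-29 genes differed by -0.383 points at MIR29A, 0.589 at MIR29B1, 2.0 at MIR29B2 and 0.861 at MIR29C.

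Muscle microRNA genes, silent in most other tissues, had 6 of 10 measured at a control median of 25%, with a median difference of 1.33 points, 4 higher and 2 lower. MIR133A2 stood at 21.0% and 23.5%, and MIR206 at 12.6% and 13.3%. MIR208A and MIR208B, in the myosin genes MYH6 and MYH7, stood at 37.9% and 36.2%, and at 22.8% and 21.3%. MIR499A, in MYH7B, stood at 81.4% and 84.1%.

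MicroRNAs reported to regulate mitochondrial fission and fusion are close to the target described for the compound. Their genes had 12 of 20 measured, with a control median of 84.5% and a median difference of -0.00500 points, 6 higher and 6 lower, and 0.373 with pooled reads. The widest difference was that of MIR210, described above. MIR484, reported to target the fission adaptor FIS1, was nearly unmethylated in both libraries. MIR140, which has been reported to target mitofusin 1, stood at 93.2% and 95.7%, a difference of 2.49 ± 0.73 points over 41 CpGs. MIR761 and MIR593, both reported to target the fission factor MFF, stood at 90.4% and 92.2%, and at 72.5% and 72.4%. MIR30E, MIR30B and MIR27A were high in the control at 95.5%, 93.8% and 90.5%. MIR27A had 11 CpGs and equal values in both libraries to MIR24-2, given above, so these are not taken as separate measurements. MIR483, in IGF2, stood at 64.0% and 63.9%.

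The 6 microRNA genes of the HOX clusters had a median difference of 0.154 points, 4 higher and 2 lower. MIR10A, near HOXB4, stood at 15.3% and 14.9%, and MIR10B, near HOXD4, at 92.9% and 94.0%. MIR615, in HOXC5, stood at 8.53% and 8.55%. The largest of these differences was 1.85 ± 1.26 points at MIR196B.

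**Figure D5:**
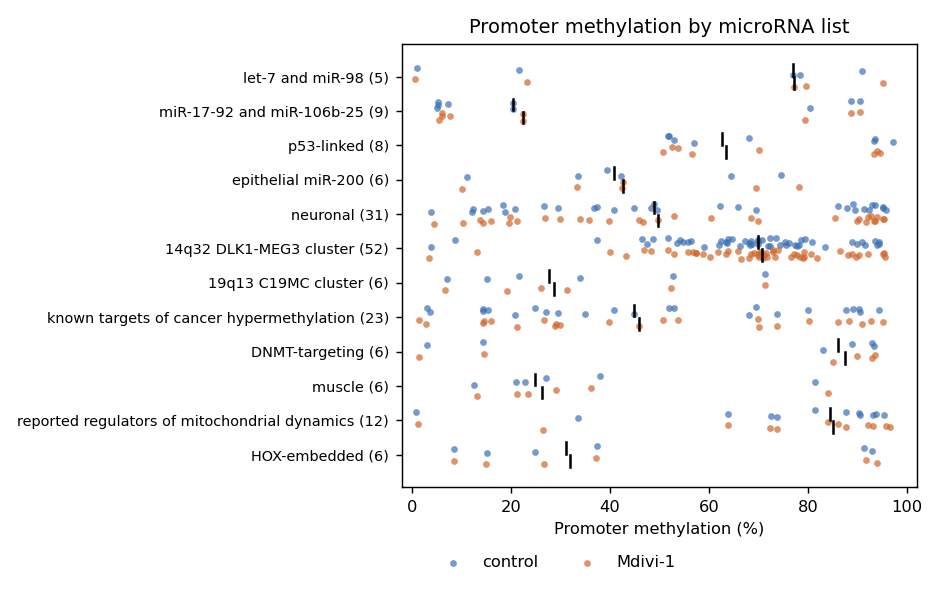
Promoter methylation in percent (x axis) of the measured genes in 12 microRNA lists (y axis, number of genes in brackets), with blue points for the control, orange points for the Mdivi-1 library and black ticks for the medians. Lists such as the neuronal one span nearly the whole scale, and the medians of the libraries lie within 2 points of each other in every list.

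Promoters of the machinery that makes and uses microRNAs, which are not members, gave a comparison within the pathway. Of 32 listed genes 25 were measured, at a control median of 14.5%, with a median difference of 0.286 points, 17 higher and 8 lower; none met the rule of size. The nuclear processors DROSHA and DGCR8 stood at 2.70% and 2.69%, and at 1.44% and 1.66%. DICER1 stood at 12.8% and 13.3%, the exporter XPO5 at 8.32% and 8.58%, and the effector AGO1 at 72.2% and 71.0%. LIN28B, the blocker of let-7 that is often high in neuroblastoma, stood at 55.7% and 57.5%.

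The minimum of 5 CpGs did not mark a step in the values. The 39 entries with exactly 5 CpGs had a control median of 88.9% and a median difference of 1.08 points, from -12.8 to 20.9. The 61 entries with 4 CpGs, left out by the rule, had a median of 83.9% and a median difference of 1.14 points, from -11.5 to 13.8.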

How the data were processed

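Genomic DNA of SH-SY5Y cells was captured with the SureSelectXT Methyl-Seq kit and read by NovaSeq sequencing, per the labels' protocols. The submitters' processing notes name BSMAP, with no version given here, and the hg19 build, on which all coordinates are given. The study's RNA-seq was not analysed here. The authors deposited a table of 2773807 positions with the methylated fraction of either library and its coverage, which is taken here as an estimated count because some values are not whole, and gene, promoter and CpG island annotation. Their difference column was not used.

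Control fractions were whole reads (tolerance 1e-06) at 33.3% of positions at the deposited coverage, and at 100.0% after multiplying the coverage by 1.23, which equals the median coverage of the Mdivi-1 library (37 reads) over that of the control (30 reads). This rescaling was inferred from the values; the sources used here do not state it. Reads were recovered by reversing it, leaving out 10760 positions, of which 10751 had fractional coverage. This removed 158 CpGs from 21 members.

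CpGs under 10 reads in either library were left out. A level is the mean over CpGs, in percent. Counting errors are binomial, for independent CpGs or for reads shared by all CpGs and alike at each of them. A promoter's island and gene annotation is that of the largest number of its CpGs. Single CpGs were compared by Fisher's exact test. With 1 library per group no promoter was tested. Scripts were tested on simulated data.

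Members and lists were chosen with earlier results of these data known. Named are members meeting the rule of size, the 5 highest and 5 lowest differences among members of at least 10 CpGs, up to 6 members per list with the most CpGs, the 5 numbered families that differed most, and the 3 CpGs of smallest p; further list members, evenly methylated families, sequence groups and divided promoters were chosen after their values were seen. Alternatives were 20 reads, pooled reads, deposited fractions, unshared CpGs, other thresholds and removal of the deepest CpGs; leaving out members with fractional coverage and merging positions 1 bp apart were added after seeing the data. RefSeq (GRCh38.p14) was used for mature sequences alone. Software was SciPy 1.17.1 and Numba 0.67.0 under Python 3.11.15, with pandas 2.3.3, Matplotlib 3.10.9 and NumPy 2.4.6.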

Additional observations from a re-analysis of the deposited data

How the results depend on the processing

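No paired analysis was possible because each group held 1 library and the labels carry no replicate numbers. The mean difference of 0.668 points over members was 0.529 with a minimum of 20 reads (704 members) and 0.523 with at least 10 CpGs, and 6 other settings left it within 1.96 counting errors of the mean. The 2 members that met the rule of size became 0 with 20 reads and 0 with at least 10 CpGs, where neither has enough CpGs, 17 at 5 points and 1 at 15 points. In 10 other settings 2 or 3 members met it. The Fisher test called 0 member CpGs in all 3 alternatives run. The miR-200 median of 1.75 points was -0.449 with pooled reads, the cause of which was not tested. Other list medians also turned sign, by shifts within 1.96 counting errors of the list mean but in part beyond 1 error. With 20 reads they were -0.272 for let-7, -0.376 for miR-17-92 with miR-106b-25, -0.136 for miR-200, 1.95 for C19MC and 0.660 for the mitochondrial list. With pooled reads they were -0.157 for let-7, -0.479 for miR-17-92 with miR-106b-25 and 0.373 for the mitochondrial list. With the deposited fractions C19MC gave 0.140 and the mitochondrial list 0.0587. Merging the strands of a CpG moved the difference of MIR572 from -3.84 to -6.29 points. Over all members the direction turned at 152 with pooled reads and at 117 of the 704 with 20 reads, so the direction of a small difference is not established at this depth.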

Other observations

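MicroRNA gene promoters on the X chromosome, which the choice of members leaves out, stood in the middle of the scale more often than at its ends. The 45 promoters (43 distinct sets of CpGs) had a control median of 50%, from 0.926% to 93.1%, and 25 of them lay between 20% and 80%. The median difference was 0.125 points, with 23 higher and 22 lower with Mdivi-1. The rule of size was met by 2 of the 45, and both had only 5 CpGs. Over autosomal promoters of all kinds the share was 0.243%. The share over all X-linked promoters was not computed, so no excess can be read from these counts. MIR1468 stood at 51.2% in the control and 39.5% with Mdivi-1, a difference of -11.7 points with counting errors of 5.01 for independent CpGs and 9.76 for shared reads. MIR548AN stood at 57.2% and 47.1%, a difference of -10.1 points with errors of 4.93 and 10.98.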
